A study of Mus musculus with 6 samples.

Results

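The genes described here are 55 transcription factors known for building mesoderm and endoderm, the embryonic layers that give rise to heart, limb, kidney, muscle, connective tissue, gut and lung. A few, such as Foxd3, Pitx3 and Sim1, are better known from ectoderm. They were picked by symbol from the 52550 genes of the deposited tables and fall into 12 forkhead, 12 homeobox genes outside the paired type, 8 T-box, 8 basic helix-loop-helix, 7 paired-type homeobox, 5 GATA and 3 zinc finger genes. RNA-seq of 6 mouse medulloblastomas was compared, 3 with wild-type Eed and 3 labelled Eed mutant. Medulloblastoma is a tumour of the cerebellum. Eed is the core subunit through which Polycomb repressive complex 2 (PRC2) reads its own histone mark. The groups differ, as far as the sample labels say, in the Eed genotype alone. The names of the deposited tables also carry a code of unstated meaning, spread unevenly over the groups. No source used here gives the Eed allele, a Cre driver, the tumour model, the strain or the animals' ages. The labels do not tie the tumours to individual animals. The p-values below therefore measure the spread between these samples, which may be technical.

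PRC2 places methyl groups on lysine 27 of histone H3 over genes that are kept off, and the genes it covers in embryonic stem cells and in neural cells are typically master regulators of other lineages with promoters rich in CpG dinucleotides. GATA, T-box, forkhead and homeobox factors of mesoderm and endoderm are standard examples of such genes. In and around the brain, several are also made by pericytes, endothelium and meninges.

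The libraries held 26186236 to 26425111 estimated counts each, in 28424 to 28635 detected genes, and mitochondrial genes took 4.94% to 5.47%. Eed RNA was present in all 6 libraries. Its level was 43.7, 30.1 and 35.6 CPM (counts scaled to the library size with TMM factors) in the wild-type tumours and 32.5, 36.7 and 30.6 CPM in the mutant tumours. The groups overlapped, with an edgeR log2 difference of -0.13 (SE 0.14, adjusted p = 0.656), so the RNA level of Eed is no check of the genotype labels. All 12 markers of the granule cell lineage and its tumours passed the low-count filter, with summed levels of 4854 to 5763 CPM in wild-type and 4475 to 5187 CPM in mutant tumours.

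Most of these factors were at or near the limit of detection in both genotypes. The low-count filter, which asks for about 0.380 CPM in at least 3 libraries, was passed by 26 of the 55 and missed by 29. Of the 29, 4 had no count in any library, 5 more never reached 3 counts, and 20 reached 3 counts in at least 1 library. The number of members with at least 3 counts was 35, 35 and 36 in the wild-type tumours and 45, 39 and 42 in the mutant tumours, so these numbers did not overlap, at near-equal depth. The same number over all genes was not taken, so this cannot be read as particular to the members. Summed over the 55 members, the level was 158, 75.3 and 90.8 CPM in wild-type tumours and 150, 105 and 132 CPM in mutant tumours. The groups overlapped, with wild-type replicate 1 the highest of all 6. The ratio of the group means was 1.195, and it was 0.978 without Alx4, which held 10.2% to 16.5% of the sum in wild-type and 25.3% to 35.2% in mutant tumours. It was 1.55 without wild-type replicate 1.

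Under the edgeR quasi-likelihood test, with Benjamini-Hochberg adjustment over all genes tested, 0 of the 26 members passed at 0.05, as did 0.0% of the 19145 genes tested in either direction (smallest adjusted p over all genes 0.0808). At an unadjusted p under 0.05, 7 members were higher in the mutant tumours and 1 was lower, beside 9.29% and 8.78% of all genes. DESeq2 gave an adjusted p to 23 of the 26 and called 2 higher (Shox2 and Foxd1) and 0 lower, beside 2.96% and 2.26% of 17679 genes. Groups did not overlap in CPM for 5 members higher in the mutant tumours (Pitx3, Shox2, Twist1, Alx4 and Foxd1) and for 1 lower (Foxa2), beside 13.1% and 11.9% of all genes tested. Shox2 and Pitx3 passed the filter only through the mutant libraries, so they had to differ to be counted here. The median log2 difference of the 26 was 0.24, with 17 above and 9 below 0, beside a median of -0.01 over all genes with 48.6% above 0.

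**Figure D1:**
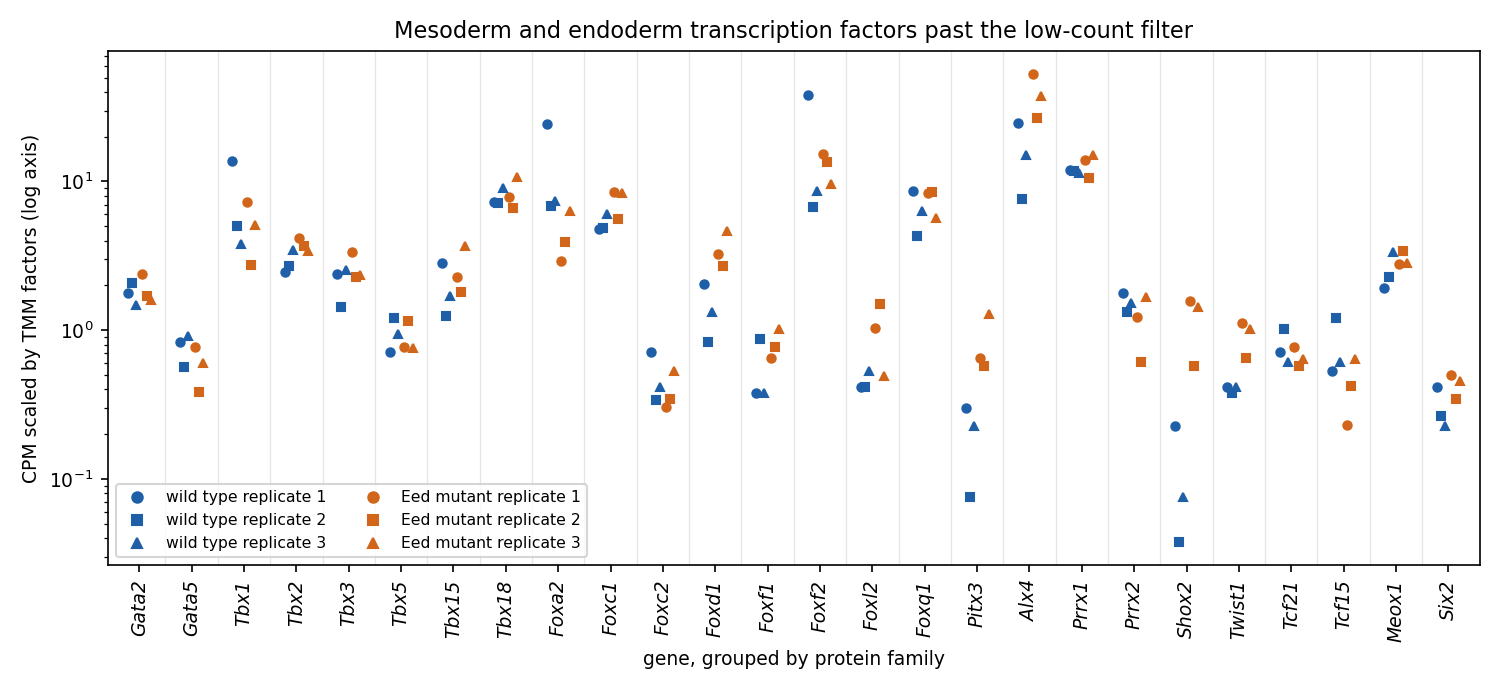
Level of each of the 26 members past the low-count filter in each of the 6 libraries, in CPM on a log axis, with blue symbols for wild-type and orange symbols for Eed mutant tumours and 1 symbol shape per replicate number. The orange symbols sit above all blue ones for Pitx3, Shox2, Twist1, Alx4 and Foxd1, and wild-type replicate 1 stands far above the other 5 libraries for Foxa2 and Foxf2.

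The 2 largest log2 differences among the members past the filter were in paired-type homeobox genes, a family that includes regulators of limb and facial mesenchyme. Of its 5 tested members, 3 were higher in the mutant tumours without overlap, against 13.1% of all genes tested, but Shox2 and Pitx3 among them were in the test only because of their mutant levels. Shox2, a factor of the heart's pacemaker region and of the upper limb bones, lies at chr3:66971727-66981771 on the minus strand (GRCm38, as are all positions here). It had 6, 1 and 2 counts in the wild-type tumours and 41, 15 and 38 counts in the mutant tumours, which is 0.113 ± 0.0996 CPM against 1.19 ± 0.540 CPM (SD, n = 3 each). Every mutant library lay above every wild-type library, and mutant replicate 2 was the lowest of the mutants. The log2 difference was 3.34 (SE 0.63) with an edgeR adjusted p of 0.134, and 3.40 with a DESeq2 adjusted p of 0.000975. The DESeq2 adjusted p was 0.0943 without mutant replicate 1 and 0.0505 without mutant replicate 3, and was not given without wild-type replicate 1 or 3. The 250 bases before the RefSeq start of Shox2, chr3:66981772-66982021 on the minus strand, are printed with those before Pitx3 (chr19:46148326-46148575, minus strand) because both genes passed the filter only in mutant libraries. The sequences are from RefSeq on GRCm38.p6, 5′ to 3′ along the gene's strand, with each CpG dinucleotide in capitals.
Shox2: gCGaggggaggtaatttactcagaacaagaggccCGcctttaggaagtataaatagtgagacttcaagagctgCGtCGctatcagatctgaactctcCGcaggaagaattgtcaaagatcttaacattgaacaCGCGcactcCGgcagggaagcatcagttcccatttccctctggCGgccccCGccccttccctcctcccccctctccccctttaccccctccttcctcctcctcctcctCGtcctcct
Pitx3: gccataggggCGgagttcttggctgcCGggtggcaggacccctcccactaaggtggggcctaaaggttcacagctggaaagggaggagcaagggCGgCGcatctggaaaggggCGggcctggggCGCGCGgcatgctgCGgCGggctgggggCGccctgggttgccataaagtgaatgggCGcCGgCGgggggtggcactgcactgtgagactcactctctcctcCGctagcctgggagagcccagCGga

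Pitx3, a factor of the lens, of midbrain dopamine neurons and of differentiating muscle, lies at chr19:46135685-46148326. It had 8, 2 and 6 counts in the wild-type tumours and 17, 15 and 34 counts in the mutant tumours. The groups did not overlap, and mutant replicate 3 had the most. This came to a log2 difference of 2.03 (SE 0.53), with an edgeR adjusted p of 0.157 and none given by DESeq2. Its wild-type levels rest on 16 counts in total. Alx4, a regulator of skull and limb mesenchyme at chr2:93642384-93681339, was the most abundant of the 55 in the mutant tumours on the length-scaled TPM scale, at 10.9 ± 3.60 TPM against 4.58 ± 2.54 TPM in wild type (SD, n = 3 each). Its levels were 24.8, 7.67 and 15.0 CPM in wild-type and 52.7, 26.5 and 37.5 CPM in mutant tumours. The lowest mutant library lay just above the highest wild-type library, and each group spread about as widely as the gap between their middle values. The log2 difference was 1.30 (SE 0.42), with an edgeR adjusted p of 0.201 and a DESeq2 adjusted p of 0.139. Leaving out wild-type replicate 1 gave a difference of 1.78 and a DESeq2 adjusted p of 4.80e-05.

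Prrx1 and Prrx2, which act together in limb and facial mesenchyme, did not share this pattern. Prrx1 was at 11.9, 11.7 and 11.4 CPM in the wild-type tumours and 13.96, 10.6 and 15.1 CPM in the mutant tumours. The 3 wild-type values lay close together inside the wider mutant range, with a log2 difference of 0.18 (SE 0.15, edgeR adjusted p = 0.538). Prrx2 was at 1.77, 1.32 and 1.52 CPM in wild-type and 1.23, 0.614 and 1.66 CPM in mutant tumours, again with overlap and a log2 difference of -0.40 (SE 0.35, edgeR adjusted p = 0.578). Of the remaining paired-type genes, Alx1, a regulator of facial mesenchyme, had 2 to 6 counts per wild-type library and 5 to 11 per mutant library. Pitx1, which sets hindlimb identity, had 0 counts in all 6 libraries.

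Although total Prrx1 RNA overlapped, the division among its transcripts did not. Prrx1 makes proteins that share the homeodomain and differ at their C-terminal end. In the GENCODE M21 annotation a protein-coding transcript, here the short form for its shorter coding part, carries a 72-base exon (chr1:163253977-163254048, minus strand) whose first 52 bases are coding and end the reading frame early, giving 651 coding bases against 735 in the form without the exon, here the long form. Those 52 coding bases, read from the annotated transcript 5′ to 3′ and printed because they separate the 2 forms, are as follows.
Prrx1 short form, coding part of its exon: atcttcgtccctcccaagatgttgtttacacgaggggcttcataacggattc

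The short form held 39.6%, 23.5% and 26.2% of the gene's estimated counts in the wild-type tumours and 59.8%, 63.8% and 42.5% in the mutant tumours. The long form held 49.4%, 67.6% and 56.2% in wild-type and 28.6%, 24.5% and 47.1% in mutant tumours. Both sets of shares were separate between the genotypes, and mutant replicate 3 lay nearest to the wild-type libraries in each. The means for the short form were 29.7% ± 8.61 and 55.4% ± 11.3 (SD, n = 3 each), with a two-sided exact permutation p of 0.1, the smallest that 3 against 3 allows. Across 42113 transcripts, 12.7% had shares that did not overlap between the groups, and 2 of the 7 member transcripts measured, both of Prrx1, did. The pair was picked after its values were seen, and estimated counts of transcripts that share most of their length carry an assignment error that the tables do not give.

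**Figure D2:**
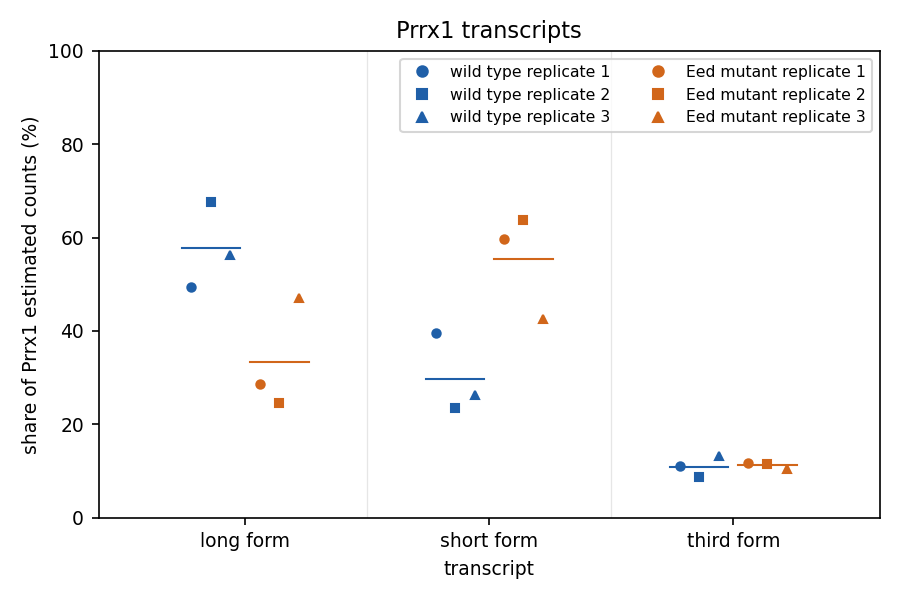
Share of the Prrx1 estimated counts, in percent, assigned to each of its 3 main transcripts in each library, with short lines at the group means. The short form runs from 23.5% to 39.6% in wild-type and from 42.5% to 63.8% in mutant tumours, the long form runs the other way, and the third form overlaps.

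The forkhead genes went in both directions. Of the 8 tested, 5 had log2 differences above 0 and 3 below. Foxd1, a marker of kidney stroma and of pericyte precursors at chr13:98354242-98359305, was at 2.04, 0.832 and 1.33 CPM in the wild-type tumours and 3.26, 2.69 and 4.64 CPM in the mutant tumours. The groups did not overlap, and differed by a log2 of 1.33 (SE 0.36), with an edgeR adjusted p of 0.161 and a DESeq2 adjusted p of 0.0181. Leaving out wild-type replicate 2 or 3 gave a DESeq2 adjusted p of 0.111 or 0.0647, and leaving out mutant replicate 1 or 3 gave 0.188 or 0.255. The 250 bases before the RefSeq start of Foxd1, chr13:98353995-98354244 on the plus strand of GRCm38.p6, are printed in the same form as the other called gene.
Foxd1: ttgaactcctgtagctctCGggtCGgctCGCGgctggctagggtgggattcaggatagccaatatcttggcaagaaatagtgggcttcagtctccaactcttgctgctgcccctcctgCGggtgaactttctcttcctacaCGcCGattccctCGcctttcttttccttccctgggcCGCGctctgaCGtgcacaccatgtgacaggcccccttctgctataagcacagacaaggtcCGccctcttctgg

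Foxa2, a pioneer factor of endoderm and of the floor plate of the neural tube, at chr2:148042877-148046969, was the only tested member lower in the mutant tumours without overlap. Its levels were 24.2, 6.84 and 7.37 CPM in the wild-type tumours and 2.91, 3.91 and 6.38 CPM in the mutant tumours. Wild-type replicate 1 was more than 3 times any other library, and the gap between the groups apart from it was small. The log2 difference was -1.54 (SE 0.55), with an edgeR adjusted p of 0.227 and a DESeq2 adjusted p of 0.180. Without wild-type replicate 1 the difference was -0.69, and without wild-type replicate 3 or mutant replicate 3 DESeq2 called it lower (adjusted p = 0.0104 and 0.0313).

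Foxf2, a factor of gut mesenchyme and brain pericytes, repeated the excess in wild-type replicate 1. It was at 37.9, 6.73 and 8.58 CPM in wild-type and 15.3, 13.4 and 9.67 CPM in mutant tumours. Apart from wild-type replicate 1, every mutant library was above the wild type. The log2 difference was -0.47 (SE 0.63, edgeR adjusted p = 0.720) with all 6 libraries and 0.74 (edgeR adjusted p = 0.234) without that replicate.

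Foxc1, needed for the meninges and the eye, was at 4.79, 4.84 and 5.999 CPM in wild-type and 8.51, 5.601 and 8.38 CPM in mutant tumours, where 1 mutant library fell inside the wild-type range. Its log2 difference was 0.53 (SE 0.20, edgeR adjusted p = 0.248, DESeq2 adjusted p = 0.173), and DESeq2 called it higher without mutant replicate 2 (0.70, adjusted p = 0.0374). Foxl2, which maintains ovarian granulosa cells, was at 0.415, 0.416 and 0.532 CPM in wild-type and 1.04, 1.496 and 0.491 CPM in mutant tumours, with mutant replicate 3 inside the wild-type range. Its log2 difference was 1.14 (SE 0.43, edgeR adjusted p = 0.238). Foxf1 (lung and gut mesenchyme), Foxq1 (stomach and brain endothelium) and Foxc2 (aorta and lymphatic valves) overlapped between the genotypes, with log2 differences of 0.58, 0.22 and -0.32. Of the 4 forkhead genes below the filter, Foxa1, the partner of Foxa2 in liver and lung, had a single count per wild-type library against 5, 6 and 2 in the mutants. Foxd3, of the epiblast and neural crest, had 0 to 3 counts in wild-type and 3 to 6 in mutant libraries, Foxd2 had 0 to 7 over all 6, and Foxe1, of the thyroid, had 1 count in 1 wild-type library.

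No T-box gene separated the groups among the 6 tested. Tbx18, a marker of epicardium and vascular mural cells, was at 7.28, 7.22 and 9.04 CPM in the wild-type tumours and 7.82, 6.67 and 10.8 CPM in the mutant tumours. Both groups covered nearly the same range, with a log2 difference of 0.10 (SE 0.20, edgeR adjusted p = 0.824). Tbx1, a factor of the pharyngeal arches, was at 13.8, 4.99 and 3.797 CPM in wild-type and 7.25, 2.76 and 5.06 CPM in mutant tumours, with wild-type replicate 1 again highest. Its log2 difference of -0.59 (SE 0.54, edgeR adjusted p = 0.593) became 0.19 without that replicate. Tbx2 and Tbx3, transcriptional repressors that act in the heart's conduction system and in the limb, had log2 differences of 0.38 and 0.32. Tbx15, of dermis and skeleton, differed by 0.42 and Tbx5, of forelimb and heart, by -0.11. Below the filter, Tbx4, of hindlimb and lung, had 7 to 9 counts in wild-type and 10 to 11 in mutant libraries, and Tbx20, of heart muscle, had 5.0 to 8.1 and 3.0 to 8.1.

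The GATA zinc finger genes were all detected, at low levels. Gata2, of blood progenitors, endothelium and some inhibitory neurons, was at 1.77, 2.08 and 1.48 CPM in wild-type and 2.38, 1.69 and 1.59 CPM in mutant tumours, with overlap and a log2 difference of 0.08 (SE 0.24, edgeR adjusted p = 0.881). Gata5, of endocardium and gut, had a log2 difference of -0.39 (SE 0.33, edgeR adjusted p = 0.560). Gata6, of primitive endoderm and heart, had 6, 3 and 3 counts in wild-type libraries and 13, 6 and 13 in mutant libraries, which met at 6. Gata3, of T cells and kidney duct, had 5.1, 2.0 and 4.0 against 6.0, 7.0 and 9.2 counts, and Gata4, of heart and foregut, had 3 to 10 against 7 to 11.

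Among the basic helix-loop-helix genes, Twist1, a regulator of mesenchyme and skull sutures at chr12:33957671-33959829, separated the groups. It was at 0.415, 0.378 and 0.418 CPM in the wild-type tumours and 1.11, 0.652 and 1.02 CPM in the mutant tumours. The wild-type values were nearly equal and all lay below the mutant values. The log2 difference was 1.19 (SE 0.29), with an edgeR adjusted p of 0.153 and a DESeq2 adjusted p of 0.150. The 250 bases before its RefSeq start, chr12:33957421-33957670 on the plus strand of GRCm38.p6, are shown with those of the other separated genes.
Twist1: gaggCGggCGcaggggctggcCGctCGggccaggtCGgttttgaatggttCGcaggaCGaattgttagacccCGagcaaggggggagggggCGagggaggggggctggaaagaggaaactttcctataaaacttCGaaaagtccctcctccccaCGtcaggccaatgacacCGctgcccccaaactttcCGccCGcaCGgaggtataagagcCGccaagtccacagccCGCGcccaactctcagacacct

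Twist2, the relative of Twist1 in the dermis, went from 0, 2 and 0 wild-type counts to 3.7, 2.0 and 3.0 mutant counts, too few to place. Tcf21, of epicardium and kidney mesenchyme, and Tcf15, of somite epithelium, overlapped, with log2 differences of -0.24 and -0.85. Sim1 and Sim2, of hypothalamus and midline, and Hand1, of trophoblast and heart, never exceeded 3 counts.

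The 3 zinc finger genes of kidney and joint development all missed the filter. Wt1, of kidney and gonad, gave 2, 5 and 6 wild-type counts against 13, 6 and 3 mutant counts. Osr1, of intermediate mesoderm, had 6.3 to 9.0 against 3.0 to 8.0 counts, and Osr2, of palate and joints, had 1 to 4 against 2 to 6. Each gene's groups overlapped.

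Of the 12 remaining homeobox genes, 2 passed the filter and both overlapped. Meox1, a somite factor, was at 1.92, 2.27 and 3.38 CPM in wild-type and 2.80, 3.41 and 2.83 CPM in mutant tumours, with a log2 difference of 0.26 (SE 0.24, edgeR adjusted p = 0.603). Six2, which maintains nephron progenitors, had a log2 difference of 0.51 (SE 0.35, edgeR adjusted p = 0.473). Nkx3-2, a factor of the sclerotome and joints, missed the filter but had the clearest contrast of the low-count genes. It had 1, 0 and 0 counts in the wild-type libraries and 24, 5 and 13 in the mutant libraries. All 3 mutant libraries were above all wild-type libraries, and mutant replicate 2 was the lowest of the mutants. The ratio of the summed counts, scaled for depth, was 42.4 (exact 95% interval 7.20 to 1713, counting error only). In the edgeR fit with no filter its adjusted p was 0.120.

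Nkx2-5, the early heart factor, was at 0 counts throughout the wild type, while the mutant libraries held 3, 4 and 7 counts. Mutant replicate 1 lay at the limit of detection of 3 counts per library. Over the groups, 0 against 14 counts put the lower end of the exact 95% interval of the ratio at 3.35 (counting error only), and the adjusted p was 0.188 in the unfiltered edgeR fit. Barx1, of stomach mesenchyme and teeth, went from 1, 0 and 1 wild-type counts to 4, 2 and 4 mutant counts, a ratio of 5.04 (exact 95% interval 1.07 to 47.3, counting error only). The corresponding ratio for Foxa1, from 3 and 13 counts, was 4.37 (1.201 to 23.9). Both genes had a mutant library at 2 counts, below the limit of detection. In the unfiltered edgeR fit the adjusted p was 0.419 for Barx1 and 0.356 for Foxa1. Gata3 at 2.02 (0.938 to 4.61) and Tbx4 at 1.36 (0.767 to 2.44), also higher in every mutant library, had intervals that included 1. Meox2, of limb muscle and vascular endothelium, ran the other way in 1 library only, with 28, 4 and 7 wild-type counts against 4, 4 and 5 mutant counts. Its ratio of 0.336 (0.165 to 0.643) rested mainly on that library. Barx2 had 4 to 10 counts in wild-type and 1 to 8 in mutant libraries, and Mixl1, of the primitive streak, had 4 counts in wild-type replicate 2 and 2 in mutant replicate 2.

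Over the 25 members below the filter with any count, the rounded counts of 6 (Gata3, Tbx4, Foxa1, Barx1, Nkx2-5 and Nkx3-2) were higher in every mutant than in every wild-type library, and 0 were lower. Among all 15244 genes below the filter with a count, 2.47% were higher and 2.16% lower in that way. Those genes had a median of 7 counts over the 6 libraries and the members a median of 19, so the shares are not from like depths.

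**Figure D3:**
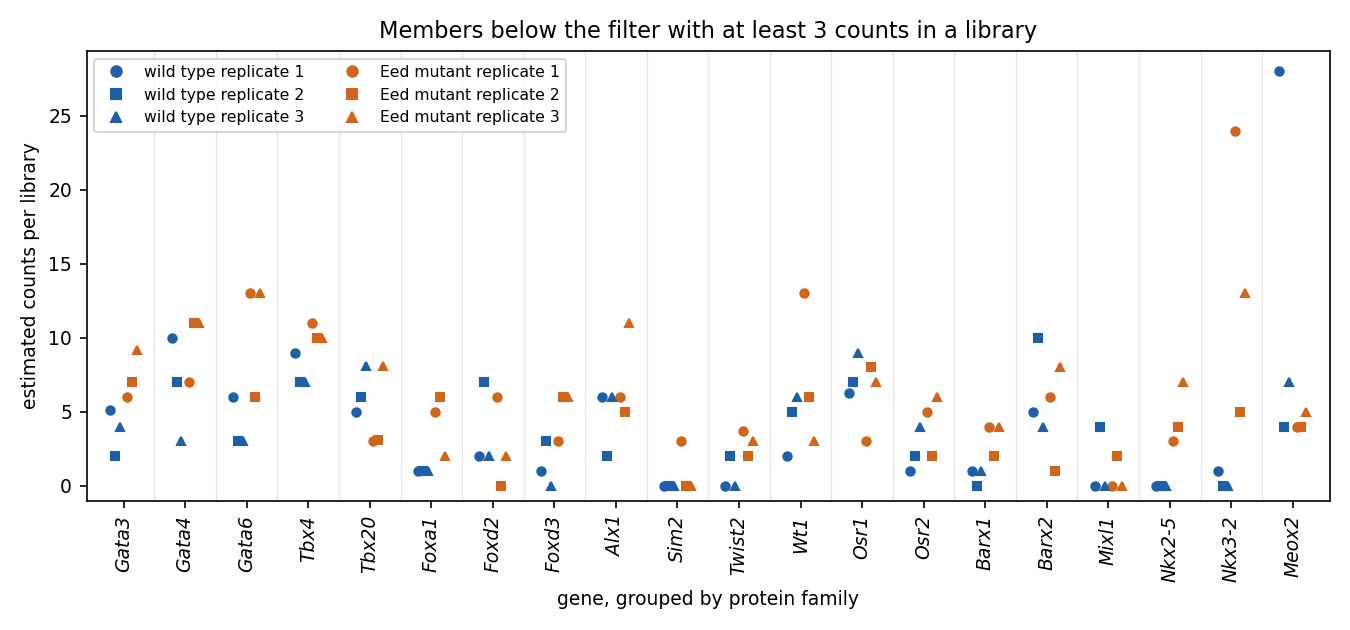
Estimated counts per library, on a linear axis, of the 20 members that missed the filter but reached 3 counts in at least 1 library, with blue symbols for wild-type and orange symbols for Eed mutant tumours. Nkx3-2 stands out with 24, 5 and 13 counts in the mutant and at most 1 in the wild-type libraries, and Meox2 with 28 counts in wild-type replicate 1.

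A remainder of 9 members never reached 3 counts in a library, so at this depth no difference could have been seen. Pitx1, Cdx1, Cdx2 and Cdx4 were at 0 in all 6 libraries, where a count of 0 allows a level of up to 0.114 to 0.115 CPM per library. The Cdx genes pattern the posterior body and the intestine. Foxe1, Sim1, Hand1, Hand2 and Nkx2-3 had 1 or 0 counts in each library. Hand2, of the right ventricle and sympathetic neurons, had 1 count in mutant replicate 3. The 250 bases before the RefSeq start of Cdx4 (chrX:103321148-103321397, plus strand) and Hand2 (chr8:57320733-57320982, plus strand), on GRCm38.p6, are printed as counterparts of the genes with more RNA in the mutant tumours.
Cdx4: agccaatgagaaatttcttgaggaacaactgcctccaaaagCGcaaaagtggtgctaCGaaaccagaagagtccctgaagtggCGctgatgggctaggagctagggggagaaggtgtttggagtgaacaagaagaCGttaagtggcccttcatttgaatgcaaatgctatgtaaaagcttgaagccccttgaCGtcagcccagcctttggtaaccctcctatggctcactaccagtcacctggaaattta
Hand2: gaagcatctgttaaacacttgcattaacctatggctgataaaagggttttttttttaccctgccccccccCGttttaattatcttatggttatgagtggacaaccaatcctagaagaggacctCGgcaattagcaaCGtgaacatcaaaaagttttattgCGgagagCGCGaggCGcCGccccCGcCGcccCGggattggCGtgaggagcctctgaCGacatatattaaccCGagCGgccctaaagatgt

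On the length-scaled TPM scale, the levels can be ordered between genes. In the wild-type tumours the highest were Foxf2 at 12.4 ± 12.3, Foxa2 at 10.9 ± 8.24, Tbx1 at 6.996 ± 5.16, Alx4 at 4.58 ± 2.54 and Prrx1 at 4.42 ± 0.18 TPM (SD, n = 3 each). Neighbours in this order did not differ beyond their spread, and the first 3 were each highest in wild-type replicate 1. In the mutant tumours Alx4 led with 10.9 ± 3.60 TPM, before Foxf2 at 8.69 ± 1.90, Prrx1 at 4.67 ± 0.84, Tbx1 at 4.59 ± 2.07 and Foxa2 at 3.53 ± 1.42 TPM. Members at 1 TPM or more numbered 15, 14 and 13 in the wild-type and 17, 14 and 18 in the mutant tumours.

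**Figure D4:**
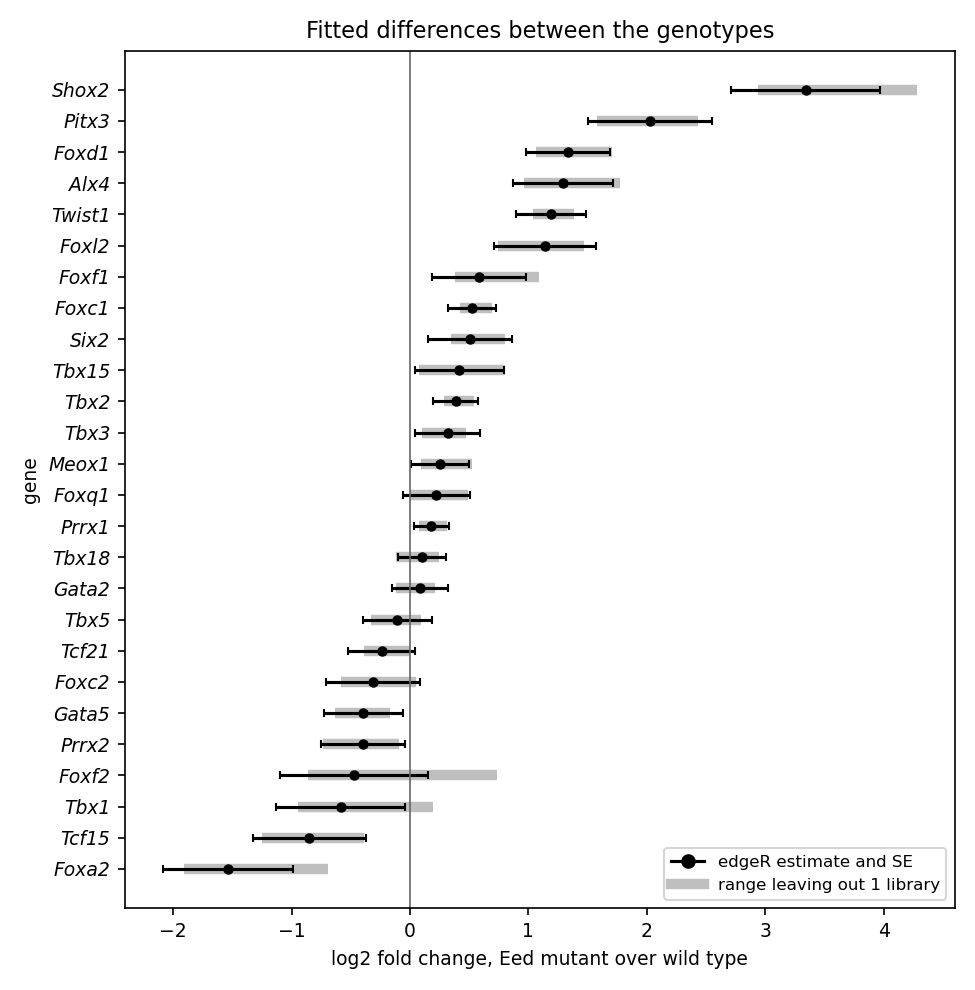
The edgeR log2 difference (Eed mutant over wild type) of the 26 tested members as a point with its SE, over a grey bar from the lowest to the highest value when any 1 library is left out. Shox2 is at the top at 3.34 and Foxa2 at the bottom at -1.54, and the bars of 7 genes, among them Foxf2 and Tbx1, cross 0.

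Genes that act with these factors, taken from lists by role, mostly did not pass a test, and edgeR called 0 in every list. Of 19 inducers of the primitive streak and germ layers, 8 were tested and 4 were at 0 everywhere. DESeq2 called 1 lower, Lhx1, at 205, 189 and 170 CPM in wild-type and 113, 158 and 119 CPM in mutant tumours (adjusted p = 0.022). Lhx1 is also a marker of inhibitory hindbrain neurons. Of 17 effectors of cardiac mesoderm, 12 were tested with a median log2 difference of 0.61. DESeq2 called 4 of them higher, with edgeR log2 differences of 1.77 for the myosin light chain Myl4, 2.98 for the cardiac actin Actc1, 4.08 for the troponin Tnnt2 and 1.15 for the progenitor factor Isl1. Embryonic skeletal muscle also makes Myl4, Actc1 and Tnnt2. Of 18 endoderm effectors 4 were tested and 0 called. The most abundant was Ttr, which choroid plexus also makes, at 128, 100.3 and 38.6 CPM in wild-type and 79.0, 13.0 and 172 CPM in mutant tumours.

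Of 18 effectors of mesenchyme, limb and skeleton, 14 were tested with a median log2 difference of 0.18. DESeq2 called 1 higher, the bone regulator Runx2, at 2.86, 2.08 and 2.05 CPM in wild-type and 9.62, 6.44 and 9.82 CPM in mutant tumours. Of 13 kidney and gonad genes 7 were tested and 0 called, the most abundant being Sall1 with a log2 difference of 0.19 and Podxl with 0.27. Of 34 relatives of the members outside the set, 16 were tested, and DESeq2 called 3 higher and 0 lower. These were Foxo1, Tcf24 and Six4, with edgeR log2 differences of 0.77, 2.64 and 1.46. All 3 separated the groups without overlap. Of the antisense and divergent partners, 6 of 13 symbols were in the tables, 4 were tested and 0 were called. Hand2os1, missing by symbol, was found by its gene identifier and tested too. Its log2 difference was 0.48 (SE 0.41, edgeR adjusted p = 0.559, DESeq2 adjusted p = 0.728).

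Markers of other cell types differed between the genotypes in the same libraries. The widest difference was in skeletal muscle, a tissue that uses several of these factors. All 12 of its markers were tested, all 12 were higher in every mutant than in every wild-type library, and 10 were called by DESeq2. Their summed level was 15.3, 18.9 and 40.2 CPM in wild-type and 163, 90.3 and 414 CPM in mutant tumours, highest in mutant replicate 3 and lowest among the mutants in replicate 2. Pitx3 and Foxd1 also had their highest level in mutant replicate 3, while Shox2, Alx4, Twist1 and Nkx3-2 had theirs in mutant replicate 1. All 6 of these genes, like the muscle sum, were lowest among the mutants in replicate 2. Of the 14 members higher in every mutant library by CPM, 9 were lowest there, and Gata3, Tbx4, Foxa1, Foxd3 and Nkx2-5 were not. Gata6, Foxd3 and Twist2 among the 14 tied with a wild-type library in rounded counts and separated only through library scaling. The same numbers over all genes were not taken, so they cannot be read as particular to the members. Whether the members follow the muscle sum was not tested. The 12 endothelial markers summed to 176 to 213 CPM in wild-type and 223 to 250 CPM in mutant tumours, with 4 separated and 2 called higher (Pecam1 and Kdr). The median log2 difference of this list was 0.37, with Ly6c1 (-0.13) and Slco1a4 (-0.17) below 0. The 12 pericyte and smooth muscle markers summed to 264 to 293 and 298 to 369 CPM, with 2 called higher (Rgs5 and Acta2). Their median log2 difference was 0.22, with 4 higher and 1 lower (Kcnj8) without overlap. Vtn and Cspg4 also had log2 differences below 0.

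The 12 fibroblast markers of the meninges and vessel walls summed to 347 to 404 CPM in wild-type and 393 to 792 CPM in mutant tumours. Igf2 alone made 128 to 195 and 272 to 555 CPM of these sums. The median log2 difference of the list was -0.39, with Igf2 called higher, Dcn called lower and 5 of 12 lower without overlap. No marker of these 4 lists was at 0 in all libraries. Other lists gave median log2 differences of -0.13 (choroid plexus), -0.30 (microglia), -0.38 (inhibitory neurons), -0.21 (ependyma), -0.08 (neural crest), -0.05 (blood) and -0.19 (granule lineage). Among the genes DESeq2 called in these lists, Csf1r and Mrc1 of microglia, Gad1 and Lhx1 of inhibitory neurons, Kit of blood and Barhl2 of the granule lineage were lower, and Ngfr and Ets1 of neural crest and Ccnd1 of the granule lineage were higher. The part of these cells in the members' values was not tested, and in bulk tumour RNA more cells of a type and more RNA per cell cannot be told apart.

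Some members overlap other genes, and no source used here gives the strand of the libraries. Of the 55, 26 overlap another annotated gene and 17 share exon bases with 1. Shox2 shares 153 of its 3311 exon bases with Rsrc1 on the opposite strand, which was at 65.3, 59.8 and 61.6 CPM in wild-type and 75.7, 70.4 and 69.6 CPM in mutant tumours. Reads from those shared bases cannot be assigned to 1 of the genes without strand. Next to Foxa2, the long noncoding RNA gene 9030622O22Rik, named after its values were seen, was at 7.39, 2.19 and 2.47 CPM in wild-type and 0.690, 1.27 and 1.40 CPM in mutant tumours. It repeated the Foxa2 pattern of a high wild-type replicate 1 and a lower mutant group, with a log2 difference of -1.84 (SE 0.54, edgeR adjusted p = 0.177, DESeq2 adjusted p = 0.013).

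Some members are neighbours on a chromosome. Foxq1, Foxf2 and Foxc1 lie in a row on chromosome 13, with gaps of 64.8 kb and 175 kb, and had log2 differences of 0.22, -0.47 and 0.53. Foxf1 and Foxc2, separated by 28.0 kb, had 0.58 and -0.32. Without wild-type replicate 1, Foxf2 was at 0.74 and Foxc2 at 0.055. The transcribed region Gm20388, which overlaps both without sharing exon bases, was at 57.0, 54.4 and 61.4 CPM in wild-type and 99.0, 74.9 and 85.2 CPM in mutant tumours (DESeq2 adjusted p = 0.001) and was also named after its values were seen. Tbx3 and Tbx5, 148 kb apart, had 0.32 and -0.11. Tbx2 and Tbx4, 44.5 kb apart, had 0.38 and, in the unfiltered fit, 0.44. Differences between neighbours were not tested.

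Most of the promoters found for these genes were rich in CpG. The genes were picked by symbol, but master regulators of lineages typically have such promoters, so the feature is not independent of the choice. RefSeq promoter windows were found for 32 of the 55, and in the 250 bases before the RefSeq start the observed over expected ratio of CpG had a median of 0.697, beside 0.378 over 27025 promoters of the same length. A ratio of at least 0.6 was found in 23 of 32 members (71.9%) and in 34.5% of all promoters. GENCODE M21 places 9 of the 32 windows, those of Nkx3-2 and Nkx2-5 among them, wholly inside the gene, and the median of the other 23 was 0.724. The windows printed lie before the GENCODE start too, to within 3 bases. Its median was 0.695 in the 16 members past the filter and 0.702 in the 16 below it. It was 0.630 for Shox2, 0.740 for Twist1, 0.344 for Cdx4 and 0.993 for Hand2, of which the first pair had RNA in the mutant tumours and the second had almost none. The 12 members with a window that were higher in every mutant library, by CPM, had a median of 0.674. Of the motifs searched on both strands, TATAAA was in 15.6% of the members and 13.0% of all promoters, CAGCTG in 15.6% and 12.8%, and AGATAA in 9.38% and 10.3%. In the printed sequences, Shox2 and Twist1 hold TATAAA, Pitx3 holds CAGCTG, and Hand2 holds AGATAA.

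**Figure D5:**
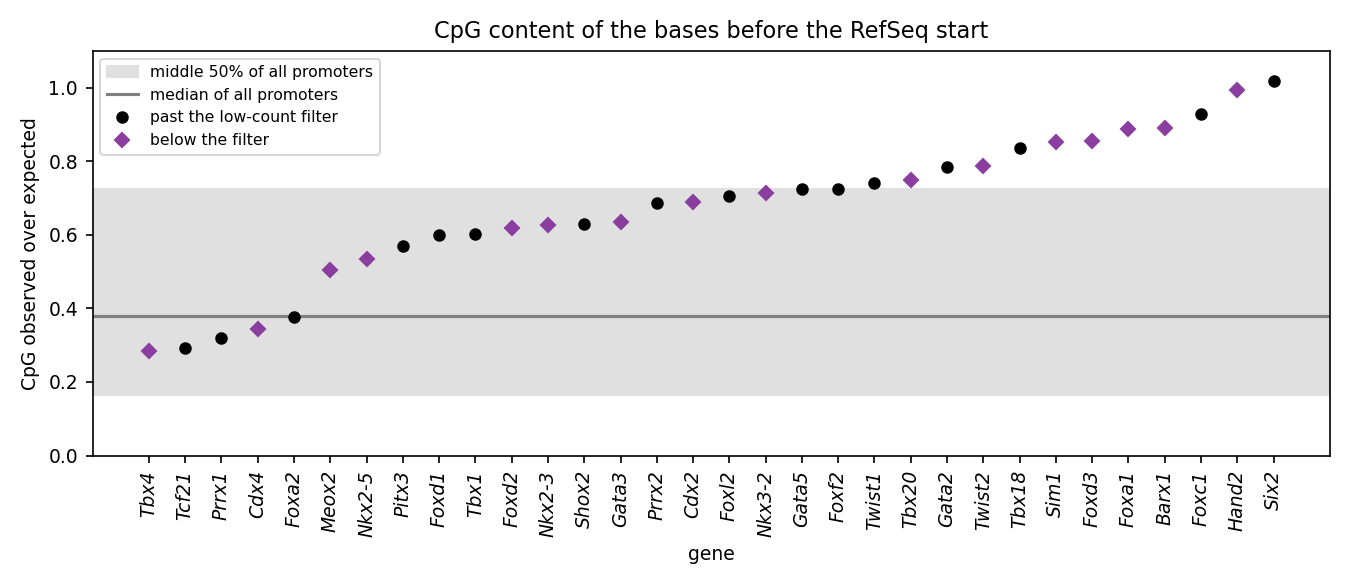
Observed over expected CpG ratio of the 250 bases before the RefSeq start for the 32 members with a RefSeq window, in rising order, with circles for members past the low-count filter and diamonds for those below it. Most members lie above the median of all promoters (grey line, 0.378), and circles and diamonds mix along the whole range.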

How the data were processed

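RNA-seq of 3 wild-type and 3 Eed mutant mouse medulloblastomas was used, 1 table per tumour. The authors deposited, per the file headers, a kallisto estimated count and a TPM value (abundance scaled for transcript length) for each of 131100 transcripts. Kallisto 0.43.1 and the build GRCm38 (mm10) are named by the submitters' processing notes. No source used here gives the annotation release, the strand or how RNA was selected.

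Estimated counts were summed per gene and rounded, giving 52550 genes and 26186236 to 26425111 counts per library, and 3 counts (0.114 to 0.115 CPM) were taken as the limit of detection. The test was edgeR 4.0.16 (quasi-likelihood, TMM, filterByExpr with a minimum count of 10, Benjamini-Hochberg at 0.05 over all genes tested). DESeq2 1.42.0 and limma 3.58.1 were alternatives, TPM with pseudocounts of 1 and 0.1 included. The SE of a log2 difference is its size over the square root of F. The scripts were tested on simulated data. Intervals cover counting error only, since reads without molecular identifiers are not independent molecules. Exon positions come from GENCODE M21 and promoters from RefSeq (GRCm38.p6), matched by symbol for 32 members and missing for 23.

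The members, role lists and marker lists were chosen with earlier results of these data known. All 55 members were to be accounted for, with values by sample for those past the filter and counts for the rest, and other genes named only from the lists where DESeq2 called them, otherwise by level. Foxa2's and Foxf1's neighbours, Igf2 as a part of its list and the Prrx1 pair were chosen after their values were seen. The table names carry a code, of unstated meaning, shared by wild-type replicate 2 with mutant replicates 1 and 2 and by wild-type replicate 3 with mutant replicate 3. No code holds enough libraries for a test within it. It entered as a term in an alternative, in which wild-type replicate 1 adds nothing to the comparison.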

Additional observations from a re-analysis of the deposited data

How the results depend on the processing

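Of 457 values of member log2 differences under alternative settings, 441 kept their direction and side of the threshold and 12 changed sign. DESeq2 called 524 genes higher and 399 lower in the mutant tumours, and 2 members higher. Higher calls numbered 1 with limma-voom, 1 with limma on log2(TPM + 0.1) and 3 with no filter. Leaving out 1 library gave 0 to 6 higher and 0 to 3 lower calls over all genes. Members separated in CPM with the mutant higher numbered 14 with no filter, 2 with a filter of 1 CPM in 3 samples, and 6 to 11 when 1 library was left out, reaching 11 without wild-type replicate 1 or 3, 10 without mutant replicate 2 and 8 without wild-type replicate 2. Those with the mutant lower numbered 1 to 3, reaching 3 without mutant replicate 3 and 2 without wild-type replicate 2. Shares over all genes under these settings are not given here. Groups of fewer libraries separate more readily, so a rise in these numbers is not a result about the members. With DESeq2 and 1 library left out, 0 to 3 members were higher (Shox2, Foxc1 and Foxd1 without mutant replicate 2) and 0 to 1 lower (Foxa2). None was higher without wild-type replicate 3, mutant replicate 1 or mutant replicate 3. Over the fits with 1 library left out, log2 differences that changed sign ran from -0.12 to 0.21 (Gata2, below 0 without wild-type replicate 3, at -0.03, or mutant replicate 1), -0.95 to 0.19 (Tbx1), -0.33 to 0.10 (Tbx5, also above 0 at 0.0010 without mutant replicate 3), -0.11 to 0.24 (Tbx18, below 0 without mutant replicate 3), -0.59 to 0.055 (Foxc2), -0.86 to 0.74 (Foxf2) and -0.0015 to 0.49 (Foxq1). Tbx1, Foxc2 and Foxf2 were above 0 without wild-type replicate 1 and, at 0.18, 0.13 and 0.69, with the code as a term. DESeq2 with the code as a term called Alx4 (1.90, adjusted p = 2.4e-06) and Foxd1 (1.82, adjusted p = 0.0039) higher. It did not call Foxa2 (-0.66, adjusted p = 0.276) and gave Shox2 (4.51) no adjusted p. Wild-type replicate 1 adds nothing to that comparison. Left-out libraries leave fewer samples, and the other causes were not tested.

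The labels do not say that the replicate numbers pair the samples. Same-numbered libraries correlated in their deviations from the group means at 0.227, 0.062 and -0.135. The other combinations ran from -0.295 to 0.193. So few libraries cannot decide whether the samples are paired. With the replicate block, edgeR called 189 genes higher and 84 lower and 2 members higher, Shox2 (adjusted p = 0.0325) and Alx4 (adjusted p = 0.0266). The block has no known basis in the design, so these calls add no weight to those of the main fit.

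The code term, a sex term, robust fitting, promoter windows outside the gene, DESeq2 with a library left out and the summed TPM were added after seeing the data. Depth limits the 29 members below the filter, of which 9 never reached 3 counts in a library.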
